A study of Mus musculus with 6 samples.

Results

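Toll-like receptors and the proteins that serve them were followed through the RNA sequencing of microinjected DRGs. The group was made of 10 genes chosen by symbol, of 48440 rows in the table, and all 10 were found. It held 7 receptors (*Tlr1*, *Tlr2*, *Tlr3*, *Tlr4*, *Tlr7*, *Tlr9*, and *Tlr13*), the chaperone *Unc93b1*, and the adaptors *Myd88* and *Ticam1*. The rule is by name and uses no measured value. All 10 passed the filter on low counts.

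The DRGs were those of wild-type male mice, whose ipsilateral L3/4 ganglia had received virus. In 3 libraries the virus was AAV5-*Gfp*, an adeno-associated virus coding for green fluorescent protein. In the other 3, AAV5-*V1* was given together with AAV5-*V2* (AAV5-*V1+V2*, labelled AAV5-NIS V1 and V2), and these code for the transcript variants of *NIS-lncRNA*, a long noncoding RNA that the study links to nerve injury. Every mouse therefore carried an AAV5 vector, and no library came from a ganglion without one. Each group received its own virus, so that effects of the virus preparation and of the transcripts cannot be told apart. The study's texts give both 4 and 5 weeks after microinjection. The study names CD1 mice for microinjection of these viruses, without saying so of the sequenced ganglia in particular. Age, the promoter of each virus, and the number of mice behind a library are not given in the sources used here, so that the P values measure the spread between these libraries, which may be technical. *NIS-lncRNA* itself was not analysed here, and its overexpression was not checked.

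Total counts were between 32025612 and 34764282 per library, with overlap of the groups. The ganglion's neuronal genes were abundant in every library. The summed level of 10 neuronal markers, in CPM (read counts scaled to a common library size after TMM normalization), was between 7289 and 7757 for the AAV5-*Gfp* libraries. It was between 4485 and 6682 for the AAV5-*V1+V2* libraries, where 1 marker, *Rbfox3*, was called lower and 5 were lower at an unadjusted P under 0.05. Of all 18593 genes tested, 5.27% were called lower and 2878 were lower at the unadjusted P. AAV5-*V1+V2* replicate 1 stood apart from replicates 2 and 3 of its group, at the lowest neuronal sum and at the highest level of each of the 10 genes. Results are given with and without it where it decides a value. Read counts are listed in the order of the replicate numbers 1, 2, and 3.

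Toll-like receptors are single-pass membrane proteins that recognize microbial or damaged-cell molecules. TLR1, TLR2, and TLR4 act at the cell surface on bacterial lipids and lipoproteins, whereas TLR3, TLR7, TLR9, and TLR13 sit in endosomes and bind nucleic acids, with TLR9 reading DNA that has unmethylated CpG. UNC93B1 carries the nucleic acid receptors out of the endoplasmic reticulum. Ligand binding brings MYD88, or TRIF (the product of *Ticam1*) for TLR3 and TLR4, to the receptor, and NF-κB and interferon regulatory factors are then switched on. In ganglia these receptors are known mainly from macrophages and other immune cells, and some also from sensory neurons and glia.

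Of the 10 genes, 8 were higher with AAV5-*V1+V2* and 0 were lower when an adjusted P under 0.05 was required. P values came from the quasi-likelihood test of edgeR and were adjusted by Benjamini-Hochberg over all 18593 genes tested. All 7 receptors and *Unc93b1* rose, whereas *Myd88* and *Ticam1* did not pass. Over all genes tested, 10.1% were called higher and 5.27% lower. At an unadjusted P under 0.05, 9 members were higher and 0 were lower, with 19.2% of all genes tested higher. DESeq2 called 8 members higher and 0 lower, with 2405 of the 18593 genes higher. The median log2 fold change was 1.51 over the 10 genes, against -0.0003 over all genes tested. In 9 of the 10 genes every AAV5-*V1+V2* library lay above every AAV5-*Gfp* library, as was the case for 23.4% of the genes tested. In 0 of them was every AAV5-*V1+V2* library below, which held for 22% of the genes tested. In bulk tissue, more cells that express a gene and more RNA of it per cell cannot be told apart. Leaving out a control library removed most of the calls. Without AAV5-*Gfp* replicate 1, 3 of the 10 were called (*Tlr1*, *Tlr7*, and *Tlr13*), and without AAV5-*Gfp* replicate 2 or replicate 3, 0 were called by the same test, although 8 members were higher at an unadjusted P under 0.05 in each of these last fits. Over all genes, the number called higher was 257 of 18975 without AAV5-*Gfp* replicate 1, 12 of 18917 without replicate 2, and 15 of 18947 without replicate 3. At the unadjusted P, 2916 of 18917 genes were higher without replicate 2 and 2932 of 18947 without replicate 3. Leaving out AAV5-*V1+V2* replicate 1 left 7 called.

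**Figure D1:**
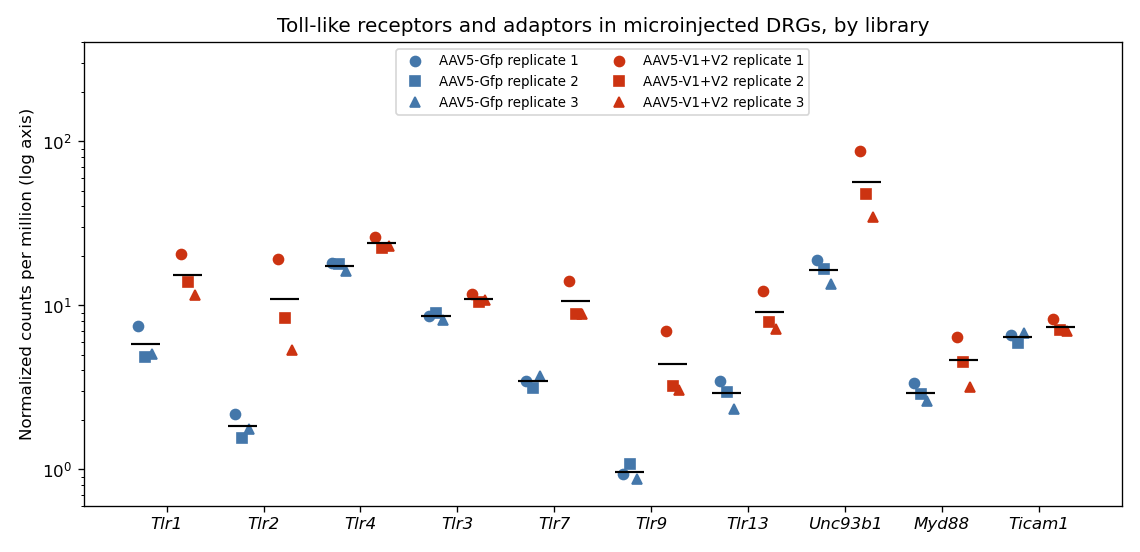
Normalized CPM on a log axis for the 10 genes in each of the 6 libraries, with AAV5-*Gfp* in blue, AAV5-*V1+V2* in red, a symbol for each replicate, and a bar at the group mean (n = 3). The red circles (AAV5-*V1+V2* replicate 1) are the highest points of every gene, and *Myd88* is the only gene whose groups overlap.

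Among the nucleic acid receptors, *Tlr9*, the DNA sensor, had 30, 37, and 27 reads with AAV5-*Gfp* and 228, 107, and 104 with AAV5-*V1+V2*. The groups did not overlap, and the lowest AAV5-*V1+V2* library had 3.03 CPM against 1.07 CPM in the highest AAV5-*Gfp* library. The mean was 0.954 ± 0.103 CPM in the controls and 4.39 ± 2.20 CPM after AAV5-*V1+V2* (SD, n = 3 each). The log2 fold change was 2.20 ± 0.36 (standard error), with adjusted P = 0.0159 in edgeR's test, as for the genes that follow. It was 1.71 without AAV5-*V1+V2* replicate 1. The gene occupies positions 106222598 to 106226883 of chromosome 9 (GRCm38, plus strand) in 2 exons, with no overlapping gene in GENCODE M21.

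*Tlr7*, a receptor for single-stranded RNA, had 111, 109, and 115 reads with AAV5-*Gfp* and 464, 296, and 304 with AAV5-*V1+V2*. The AAV5-*Gfp* libraries were close to each other, at 3.42 ± 0.270 CPM (SD, n = 3), and the lowest AAV5-*V1+V2* library was at 8.86 CPM. The log2 fold change was 1.63 (standard error 0.21), with the smallest adjusted P of the group, 0.0140. *Tlr13*, whose mouse product recognizes bacterial ribosomal RNA, had 111, 103, and 73 reads with AAV5-*Gfp* and 400, 261, and 244 with AAV5-*V1+V2*. Its log2 fold change, 1.63 (standard error 0.25, adjusted P = 0.0144), was nearly that of *Tlr7*. Both genes lie on the X chromosome, *Tlr7* from 167304929 to 167330558 on the minus strand and *Tlr13* from 106143204 to 106160493 on the plus strand.

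*Tlr3*, the receptor for double-stranded RNA, moved least of the receptors. It had 277, 310, and 255 reads with AAV5-*Gfp* and 383, 348, and 371 with AAV5-*V1+V2*, without overlap after normalization, where the nearest libraries were at 8.95 and 10.5 CPM. The log2 fold change was 0.36 ± 0.10 (standard error), with adjusted P = 0.0483. This call was the least stable of the 8: it was lost in each of the 6 fits that left out a library and in 4 of 9 other settings, among them limma-voom (adjusted P = 0.0501). *Tlr3* lies on chromosome 8 from 45395665 to 45411080 on the minus strand, where the antisense gene *Gm45542* overlaps it. Since the use of strand in counting is not stated, reads of the pair cannot be told apart.

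*Unc93b1*, the chaperone of the endosomal receptors, was the most abundant of the 10 per length in both groups. It had 610, 577, and 418 reads with AAV5-*Gfp*, and 2851, 1587, and 1187 with AAV5-*V1+V2*. The mean went from 16.3 ± 2.77 to 56.3 ± 27.1 CPM (SD, n = 3 each), and the large spread of the second group came from replicate 1 at 86.6 CPM. The log2 fold change was 1.79 ± 0.33 (standard error), with adjusted P = 0.0191. Without that library it was 1.34. *Unc93b1* lies on chromosome 19 from 3935186 to 3949340 on the plus strand, with up to 11 exons in a transcript.

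Of the surface receptors, *Tlr2*, which detects bacterial lipoproteins, had the largest rise of the 10 genes. It had 70, 54, and 55 reads with AAV5-*Gfp* and 626, 278, and 184 with AAV5-*V1+V2*, so that even the lowest AAV5-*V1+V2* library, at 5.36 CPM, was above the highest AAV5-*Gfp* library, at 2.17 CPM. Its log2 fold change was 2.57 ± 0.47 (standard error), with adjusted P = 0.0189. By size this was the 288th of the 1872 genes called higher. Its AAV5-*V1+V2* libraries also differed most among themselves, with a coefficient of variation of 65.8%, and without replicate 1 the log2 fold change was 1.91. *Tlr2* spans 83836272 to 83841767 of chromosome 3 on the minus strand.

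*Tlr1*, the partner of TLR2 for triacylated lipopeptides, had 242, 168, and 158 reads with AAV5-*Gfp* and 675, 463, and 393 with AAV5-*V1+V2*. The groups did not overlap, and the log2 fold change was 1.40 ± 0.26 (standard error), with adjusted P = 0.0193. *Tlr1* (64924679 to 64933563) and *Tlr6* (64952031 to 64960097) lie near each other on the minus strand of chromosome 5 and are similar in sequence. Of the 50-base words in GENCODE transcripts of *Tlr1*, 15.4% also occur in another gene, most of them in *Tlr6*, and its counts are uncertain to the extent that such reads were split or dropped. For *Tlr2*, *Tlr3*, *Tlr7*, *Tlr9*, *Tlr13*, *Unc93b1*, *Myd88*, and *Ticam1*, 0 words were shared with another gene.

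*Tlr4*, the lipopolysaccharide receptor, had 581, 616, and 505 reads with AAV5-*Gfp* and 862, 747, and 790 with AAV5-*V1+V2*. The groups were tight (17.3 ± 0.992 and 23.9 ± 2.02 CPM, SD, n = 3 each) and did not overlap. *Tlr4* spans 66827584 to 66930284 of chromosome 4 on the plus strand. The rise was small, and the log2 fold change was 0.46 ± 0.09 (standard error), with adjusted P = 0.0225. *Tlr4* and *Tlr3* were thus the called members under a 2-fold change, and 6 of the 8 called genes exceeded it, whereas 5.66% of all genes tested were called and at least 2-fold higher.

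Neither adaptor passed the threshold. *Myd88* had 108, 99, and 81 reads with AAV5-*Gfp* and 209, 149, and 108 with AAV5-*V1+V2*, and AAV5-*V1+V2* replicate 3, at 3.15 CPM, lay below AAV5-*Gfp* replicate 1, at 3.35 CPM. Its log2 fold change was 0.67 with a 95% interval from 0.05 to 1.28 (adjusted P = 0.120). Without AAV5-*V1+V2* replicate 1 it was 0.38 (adjusted P = 0.259 in edgeR's test). Without AAV5-*V1+V2* replicate 3 it was instead 0.89 and past the threshold (adjusted P = 0.0310 in edgeR's test). *Myd88* lies on chromosome 9 from 119335934 to 119341411 on the minus strand and overlaps *Acaa1a* on the other strand and *Slc22a14* on its own, so its counts may hold reads of these. *Ticam1* had 211, 205, and 212 reads with AAV5-*Gfp* and 269, 234, and 237 with AAV5-*V1+V2*. Its groups did not overlap, but only narrowly, at 6.79 and 6.91 CPM, and its log2 fold change of 0.20 had an interval from -0.08 to 0.49 (adjusted P = 0.280). It spans 56269319 to 56276786 of chromosome 17 on the minus strand, with no overlapping gene.

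**Figure D2:**
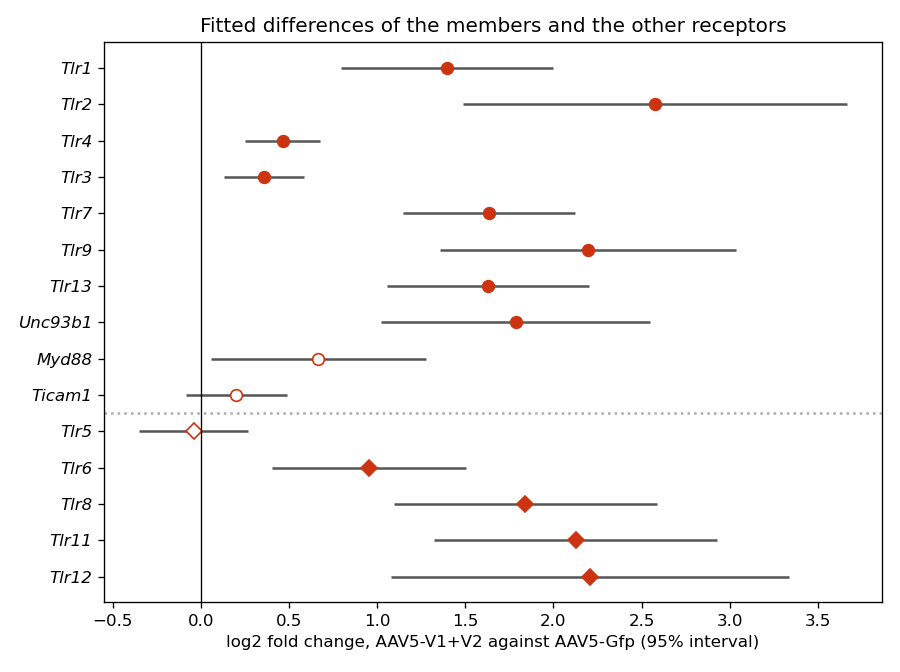
Log2 fold change of AAV5-*V1+V2* against AAV5-*Gfp* with its 95% interval from edgeR's fit of 3 against 3 libraries, for the 10 genes (circles) and the 5 other Toll-like receptors (diamonds). Filled symbols have an adjusted P under 0.05, and *Myd88*, *Ticam1*, and *Tlr5* are open.

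Receptors and *Myd88* were also set against each other within each library, a comparison chosen after the values were seen. The log2 ratio of *Tlr9* to *Myd88* was -1.83, -1.41, and -1.57 with AAV5-*Gfp* and 0.13, -0.48, and -0.05 with AAV5-*V1+V2*, so that *Tlr9* reads came near to those of its adaptor. For *Tlr2*, the same ratio had a mean of -0.68 ± 0.17 (SD, n = 3) with AAV5-*Gfp* and 1.08 ± 0.44 (SD, n = 3) with AAV5-*V1+V2*. For *Tlr1*, *Tlr7*, *Tlr13*, and *Unc93b1* it was higher by 0.77 to 1.08 with AAV5-*V1+V2*, again without overlap. Each of these 6 had P = 0.1 in an exact permutation test (two-sided), and no smaller P is possible with 3 against 3. The ratios of *Tlr4* and *Tlr3* to *Myd88* overlapped between groups (exact permutation P = 0.6 and 0.5), as did that of *Ticam1* (exact permutation P = 0.3). Of 9 such ratios, none could pass an adjusted threshold of 0.05 in this design. *Myd88* itself had a log2 fold change of 0.67, so a gene with a larger rise is higher relative to it. The share of all genes whose ratio to *Myd88* did not overlap was not computed.

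Levels of different genes were compared as CPM divided by the length of the merged exons in kilobases (RPKM). With AAV5-*Gfp* the order was *Unc93b1* (5.38 ± 0.913 RPKM, SD, n = 3), *Tlr4* (3.12 ± 0.178), *Ticam1* (2.14 ± 0.151), *Tlr1* (1.73 ± 0.440), *Tlr3* (1.65 ± 0.0744), *Myd88* (1.14 ± 0.148), *Tlr7* (0.839 ± 0.0662), *Tlr13* (0.678 ± 0.128), *Tlr2* (0.607 ± 0.103), and *Tlr9* (0.274 ± 0.0298). Neighbours in this order had overlapping libraries at *Ticam1* and *Tlr1*, *Tlr1* and *Tlr3*, *Tlr7* and *Tlr13*, and *Tlr13* and *Tlr2*. With AAV5-*V1+V2*, *Unc93b1* was still first (18.6 ± 8.93 RPKM) and *Tlr9* last (1.26 ± 0.632). *Tlr2* moved from the 9th to the 4th place, at 3.62 ± 2.38 RPKM, between *Tlr4* (4.30 ± 0.364) and *Tlr7* (2.60 ± 0.739). From *Tlr1* down, only *Ticam1* and *Tlr3* were neighbours whose libraries did not overlap, so most of this second order is within the spread.

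**Figure D3:**
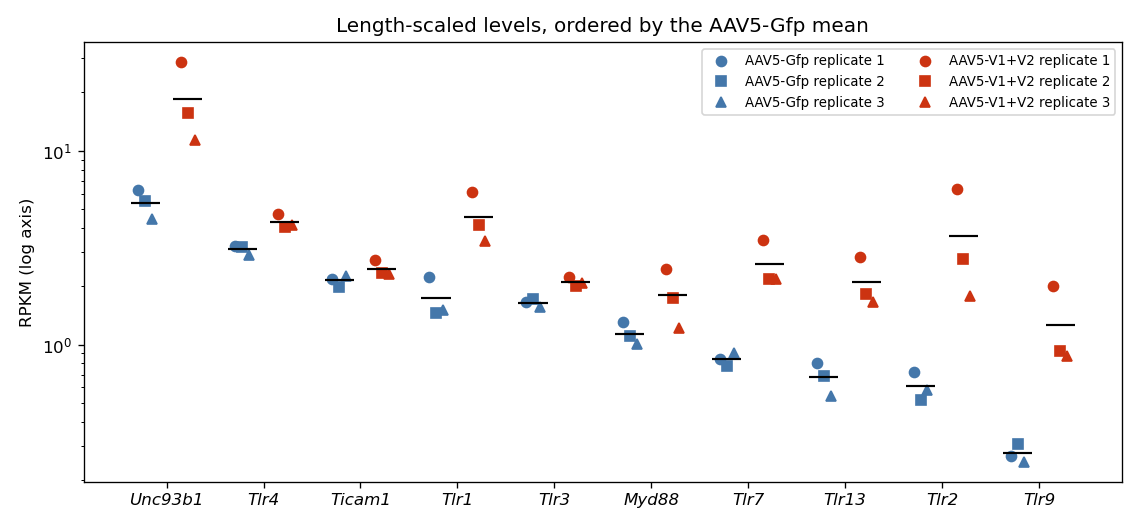
RPKM on a log axis for the 10 genes in each library, ordered by the mean of the AAV5-*Gfp* libraries (blue) with AAV5-*V1+V2* in red and bars at group means (n = 3). *Unc93b1* is highest and *Tlr9* lowest in both groups, and the red points spread more widely than the blue ones for every gene, most widely for *Tlr2*.

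Cell type markers moved with these genes. Of 14 macrophage and monocyte markers, 12 were higher and 0 lower, 13 were higher at an unadjusted P under 0.05, and their summed level was 201 to 274 CPM with AAV5-*Gfp* and 563 to 1525 CPM with AAV5-*V1+V2*. The most abundant were *Lyz2*, a lysozyme, with a log2 fold change of 2.76, *Csf1r*, the receptor of macrophage growth factors (1.51), and *Mrc1*, the mannose receptor (0.41). Of 8 B cell markers, 8 were higher (sum of 12.5 to 20.4 CPM against 96.4 to 238 CPM), as were 5 of 6 plasma cell markers (16.5 to 21.9 against 201 to 238 CPM), 7 of 8 T cell markers (4.01 to 10.4 against 37.4 to 81.9 CPM), and 6 of 8 dendritic cell markers (56.8 to 64.2 against 91.2 to 142 CPM). Of 7 neutrophil markers 1 was higher, and 5 were higher at an unadjusted P under 0.05 (19.2% of all genes tested). Their median log2 fold change was 0.84. The median log2 fold change was -0.08 over 5 satellite glia markers and 0.08 over 6 Schwann cell markers, and 6 endothelial markers had 1 higher (*Pecam1*) and 1 lower (*Flt1*). Over all genes tested, 10.1% were called higher and 5.27% lower. None of the markers had 0 reads in every library of a group. The part of these cells in the rise of the receptors was not tested.

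Relative to the mean log2 level of the 14 macrophage and monocyte markers, the 10 genes did not move alike. *Tlr1*, *Tlr7*, *Tlr13*, and *Unc93b1* stayed within 0.22 of their AAV5-*Gfp* mean on the log2 scale, and their libraries overlapped between groups (exact two-sided permutation P from 0.2 to 0.6). *Tlr2* was higher by 0.90 and *Tlr9* by 0.61 relative to the markers, without overlap. *Tlr4*, *Tlr3*, *Myd88*, and *Ticam1* were lower relative to the markers, by 1.01, 1.12, 0.86, and 1.28, also without overlap. The latter 6 differences each had an exact permutation P of 0.1, the smallest possible here. The 14 markers themselves had a median log2 fold change of 1.66, against -0.0003 over all genes tested. A gene of unchanged level would thus also be lower relative to them, and the share of all genes that were was not computed. With *Csf1r* alone in place of the list the differences kept their signs and were 0.93 for *Tlr2* and 0.64 for *Tlr9*, and *Unc93b1*, at 0.25, no longer overlapped. *Csf1r* is 1 of the 14 and rose nearly as much as their median (log2 fold change 1.51), so little change could result. The 14 markers ranged from 0.05 to 2.76 in log2 fold change. The highest, *Lyz2*, rose more than *Tlr2* (2.57) and *Tlr9* (2.20), so these differences depend on the marker chosen.

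**Figure D4:**
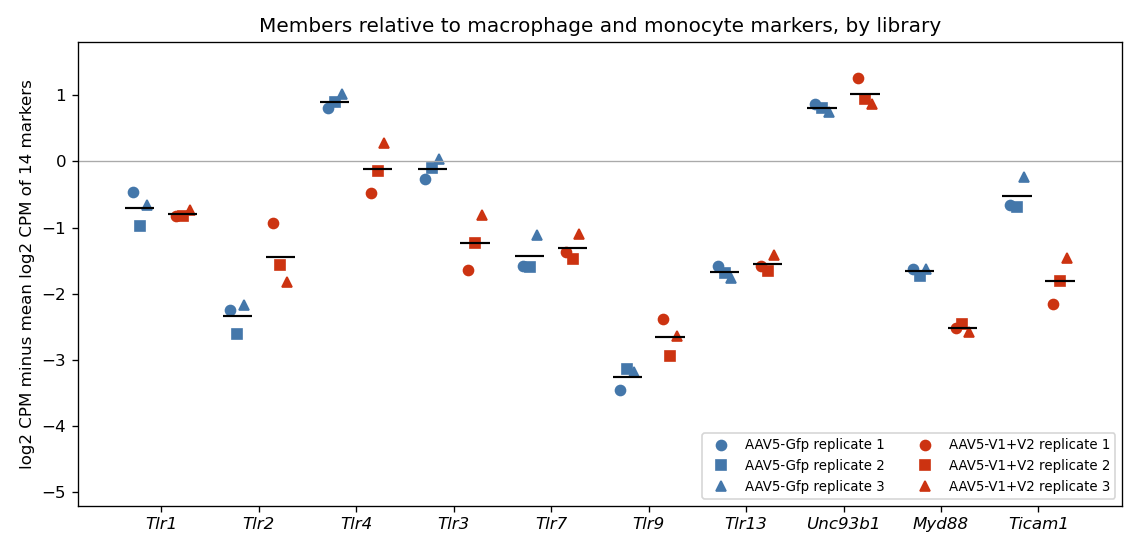
Log2 CPM of each of the 10 genes minus the mean log2 CPM of 14 macrophage and monocyte markers, in each library, with AAV5-*Gfp* in blue, AAV5-*V1+V2* in red, and bars at group means (n = 3). Red lies above blue for *Tlr2* and *Tlr9*, below it for *Tlr4*, *Tlr3*, *Myd88*, and *Ticam1*, and mixes with it for *Tlr1*, *Tlr7*, *Tlr13*, and *Unc93b1*.

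The other genes of the pathway were taken from 9 lists set by function, 84 genes of which 81 were tested. In 1 of these lists were 10 sensors of nucleic acids outside the Toll-like family. They are counted here with the pathway genes and described again under other observations. Of the 81, 47 were higher and 0 lower, 62 were higher and 1 (*Tab3*) lower at an unadjusted P under 0.05, and DESeq2 called 53 higher and 0 lower. Over all genes tested these shares were 10.1% called higher, 19.2% higher at the unadjusted P, and 2405 of 18593 genes higher by DESeq2. The median log2 fold change of the 81 was 0.91, and the sensors outside the Toll-like family gave 7 of the 47 and 9 of the 62. Without AAV5-*Gfp* replicate 1 the number higher was 2, without replicate 2 or replicate 3 it was 0, and without AAV5-*V1+V2* replicate 2 it was 28.

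Of the 5 remaining receptors, 4 were higher. *Tlr8*, the neighbour of *Tlr7* on the X chromosome, had 71, 77, and 56 reads with AAV5-*Gfp* and 369, 210, and 165 with AAV5-*V1+V2* (log2 fold change 1.84, standard error 0.32). *Tlr11* and *Tlr12*, which in mice recognize profilin of protozoa, had log2 fold changes of 2.13 and 2.21 at low counts, at most 20 reads in any AAV5-*Gfp* library. *Tlr6* was at 0.95 (standard error 0.23), with the same doubt about shared reads as *Tlr1*. *Tlr5*, the flagellin receptor, had a log2 fold change of -0.04 with an interval from -0.35 to 0.27, and its libraries overlapped.

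Of 7 co-receptors and ligand-binding partners, 4 were higher. *Cd180*, a TLR4-like protein of B cells and macrophages, had a log2 fold change of 2.24, *Cd14*, which hands lipopolysaccharide to TLR4, of 1.77, *Ly86*, the partner of CD180, of 0.91, and *Lbp*, the lipopolysaccharide-binding protein, of 0.32. *Hmgb1*, a nuclear protein that can act as a damage signal, was at -0.04 and *Cd36*, a scavenger receptor, at 0.50, and neither passed. Of 10 genes for receptor folding and endosomal processing, 5 were higher. They included *Ctss*, a lysosomal protease, which went from 700, 595, and 370 reads with AAV5-*Gfp* to 8806, 3953, and 2391 with AAV5-*V1+V2* (log2 fold change 3.17, standard error 0.50, adjusted P = 0.0153). *Slc15a3* (2.34) and *Slc15a4* (0.56), peptide and histidine transporters of endolysosomes, and *5430427O19Rik* (1.71), the mouse gene of the SLC15A4 partner TASL, rose as well. The proteases *Ctsb* and *Ctsl* had log2 fold changes of -0.06 and -0.11 and did not pass.

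Downstream of the receptors, 1 of 4 other adaptors was higher, *Pik3ap1* (BCAP), at a log2 fold change of 1.99, whereas *Tirap*, which bridges MYD88 to TLR2 and TLR4, was at 0.05 and *Sarm1*, an NAD-cleaving enzyme of axons, at -0.16. Of 17 kinases and ubiquitin ligases, 7 were higher, among them *Ikbke* (2.34), *Btk*, a kinase of B cells and myeloid cells (2.07), *Map3k8* (1.21), and *Ikbkb* (0.44). *Map3k7* (0.13) and *Tab2* (0.23), the kinase TAK1 and its binding protein, did not pass. Of 11 transcription factors, 9 were higher. *Irf8* was at 2.56, *Nfkb2* at 1.68, *Irf5* at 1.31, and *Rel* at 1.22, and *Nfkb1* (0.57) and *Irf3* (0.28) did not pass.

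Of 10 inhibitors, 5 were higher, led by *Tnfaip3*, which encodes the ubiquitin-editing enzyme A20 (log2 fold change 2.18), and *Trim30a* (1.66), *Sigirr* (1.33), and *Nfkbia*, the NF-κB inhibitor (1.19). *Tollip* (-0.08) and *Rnf216* (0.27) did not pass. Of 10 genes that these receptors are known to induce, 9 for cytokines and chemokines and *Nfkbiz* for a nuclear regulator of NF-κB, 7 were tested and 5 were higher. *Tnf* had 12, 9, and 11 reads with AAV5-*Gfp* and 150, 66, and 57 with AAV5-*V1+V2* (log2 fold change 3.05, standard error 0.46). *Il12b* had 8, 6, and 2 reads with AAV5-*Gfp* and 73, 40, and 20 with AAV5-*V1+V2*. *Ccl5* was at a log2 fold change of 4.09 and *Nfkbiz* at 1.09, while *Cxcl10* (1.74) did not pass and overlapped between groups. *Il12a* did not pass either, with 13, 7, and 6 reads against 78, 8, and 21. *Il6* and *Il10* were too low to be tested, and *Ifnb1*, the interferon beta gene, had 0 reads in all 6 libraries.

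**Figure D5:**
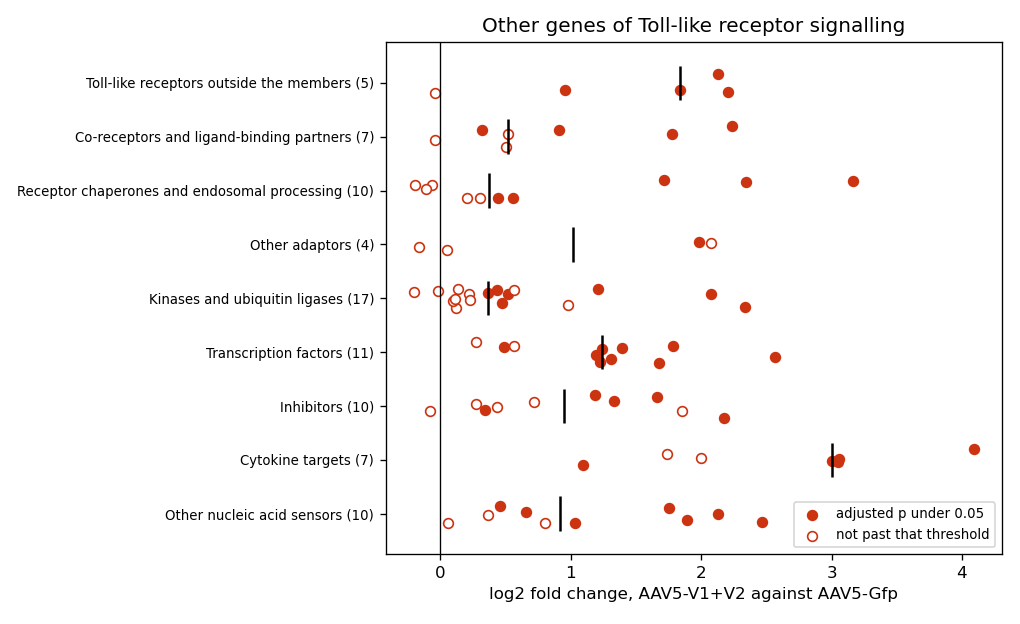
Log2 fold change of AAV5-*V1+V2* against AAV5-*Gfp* for the 81 tested genes of 9 pathway lists, with the number tested after each name, filled circles for an adjusted P under 0.05, and a bar at each list's median. Points are shifted vertically for legibility, and the list of cytokine targets, which includes *Nfkbiz*, has the highest median of the 9. The list of other nucleic acid sensors holds genes outside the Toll-like family.

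By the root mean square difference of log2 CPM, centred over the 6 libraries, the genes most like *Tlr9* among 17833 were *Gm8369* (0.0491), *Cdh17* (0.0919), *E330020D12Rik* (0.112), *Arhgap30* (0.114), and *Ap1s3* (0.124). Those most like *Tlr7* were *Gm16685* (0.0949), *Inpp5d* (0.125), *Tjp3* (0.126), *I830077J02Rik* (0.129), and *Ulbp1* (0.130). All 10 were called higher, and the likeness is over 6 libraries whose main difference is the group.

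Promoter windows of RefSeq (GRCm38.p6, 250 bases before to 50 after a start site) were found for 7 of the 10 genes, in 8 windows, with none for *Tlr4*, *Tlr7*, and *Unc93b1*. They were searched on both strands for GAGGAAGT, a sequence like that bound by the myeloid factor PU.1, for the interferon-stimulated response element (GAAA, any 2 bases, GAAA), and for a loose NF-κB site (GGG, any 5 bases, CC). The motifs can overlap each other, and a match does not show a site that is used. The bases GAGGAAGT also lie within the motif that the paper reports for the transcription factor ELF1 at the *NIS-lncRNA* promoter. A match therefore does not tell PU.1 from ELF1. The following stretches are examples, at least 1 for each motif, from 3 called receptors and from *Myd88*, which was not called. Further NF-κB-like matches, in *Tlr2*, *Tlr3*, and *Ticam1*, are not shown. Each is read 5′ to 3′ on the gene's strand with the match in capitals.
*Tlr1*, PU.1-like, chr5:64933565-64933590, minus strand: taaatgttgGAGGAAGTaggagcttg
*Tlr9*, PU.1-like on the opposite strand, chr9:106222599-106222624, plus strand: gaaagtgtcACTTCCTCaattctctg
*Tlr2*, NF-κB-like, chr3:83841762-83841790, minus strand: aggacacctGGGGAATTCCCacacggagc
*Myd88*, interferon-stimulated response element, chr9:119340040-119340067, minus strand: agcttctcgGAAAGCGAAAgaaggaggg

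The *Tlr1* match began 23 bases before the start site, outside GENCODE exons, and the *Tlr9* match 10 bases after it, within exon 1. The *Tlr2* capitals are 2 overlapping matches, the first beginning 173 bases before the start site, and the *Myd88* match began 40 bases before it. Of the *Tlr2* stretch shown, 6 of 29 bases lie in a GENCODE exon. The *Myd88* stretch lies within the GENCODE gene, with 2 of 28 bases in an exon, so it is upstream only of the RefSeq start site used. The PU.1-like sequence was in 2 of the 8 windows and in 3.20% of 32851 windows of all genes, the interferon element in 1 of 8 and in 3.44%, and the NF-κB-like sequence in 3 of 8 and in 50.8%. *Spi1*, which encodes PU.1, itself had 163, 172, and 122 reads with AAV5-*Gfp* and 858, 400, and 344 with AAV5-*V1+V2*, chosen after its values were seen (log2 fold change 1.79, standard error 0.36). Whether PU.1 had a part in the rise of the members was not tested.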

How the data were processed

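For stranded total RNA libraries of mouse DRG, a table of raw counts by gene symbol was deposited, with 1 column per library. The labels name the build GRCm38 (mm10). The aligner, counter, annotation, and use of strand are not given in the sources used here. The test was run with edgeR 4.0.16 under R 4.3.3 (filterByExpr, TMM, glmQLFit, glmQLFTest), with an adjusted P under 0.05 over 18593 genes as the threshold. Standard errors follow from the coefficient and its F statistic. CPM uses TMM-scaled library sizes, log2 CPM for ratios a prior count of 0.5, and RPKM the merged exons of GENCODE M21. Single ratios were compared with SciPy 1.17.1. Alternatives included DESeq2 1.42.0 and limma-voom (limma 3.58.1). The fit was tested on simulated data with known changes. No libraries of a group agreed within sampling noise (chi-square per degree of freedom 8.27 to 48.9). Every member was named. From each pathway list up to 4 called genes of smallest P and up to 2 others of highest mean were named, and from each cell type list at most 3 of highest mean, here given by value for macrophages. *Rbfox3* and *Tab3*, each the single gene of a count, the untested *Il6*, *Il10*, and *Ifnb1*, and *Spi1* were named outside this rule, after their values were seen. The 5 genes most like *Tlr9* and *Tlr7* exclude immunoglobulin and T cell receptor loci. Members and lists were chosen with earlier results of these data known.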

Additional observations from a re-analysis of the deposited data

How the results depend on the processing

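Of the 10 genes, 7 or 8 were called higher with RLE factors (8), upper quartile factors (7), total counts (8), no filter (7), a stricter filter (8), DESeq2 (8), limma-voom (7), and robust fitting (8), and 6 with a 2-fold change as well. The gene lost was *Tlr3* in each case of 7. Of 18593 genes, 1837 were called higher with RLE factors, 1793 with upper quartile factors, and 2277 with total counts. The number was 2405 by DESeq2, 1421 by limma-voom, and 1862 with robust fitting. It was 2104 of 30623 genes without the filter and 1775 of 16090 with the stricter filter. When each replicate was left out in turn (6 fits), 0 to 8 of the 10 and 0 to 56 of the other pathway genes were higher, against 8 and 47. Over all genes tested, 12 to 2474 were higher in these 6 fits, against 1872. The count for the pathway genes was 34 to 53 in the remaining settings tried without the block, and 0 genes of either set were lower in any setting. The cause of the losses without an AAV5-*Gfp* library was not tested. Directions of all 10 genes held in every setting, and *Myd88* passed in 1 of 15.

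With the replicate number as a block, 7 of the 10 and 54 pathway genes were higher, and *Tlr3* had an adjusted P of 0.0728 in edgeR's test. Over all genes, 2118 of 18593 were higher with the block. The standard error fell from 0.26 to 0.12 for *Tlr1* and from 0.33 to 0.17 for *Unc93b1*. Among the members it rose only for *Tlr3* (0.097 to 0.110) and *Ticam1* (0.122 to 0.127). Same-numbered libraries had correlations of 0.0403, 0.0615, and 0.0968 between their deviations from group means, each under 0.1 and so taken as no pairing, although each library correlated best with its own number. Among the receptors, *Tlr9*, *Tlr11*, and *Tlr12* had the fewest reads in AAV5-*Gfp*, where counting error is largest.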

Other observations

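Sensors of nucleic acids outside the Toll-like family also differed between the groups. Of 10 such genes tested, 7 were higher with AAV5-*V1+V2* and 0 were lower (9 higher and 0 lower at an unadjusted P under 0.05 in edgeR's test), with a median log2 fold change of 0.92. Over all genes tested, 10.1% were called higher and 19.2% were higher at the unadjusted P. These 10 genes are 1 of the 9 pathway lists above, of which 0 genes were called higher without AAV5-*Gfp* replicate 2 or replicate 3. *Aim2*, a cytosolic DNA sensor that forms an inflammasome, had 205, 189, and 120 reads with AAV5-*Gfp* and 1117, 580, and 595 with AAV5-*V1+V2*, without overlap. Its log2 fold change was 2.13 (standard error 0.31). *Tmem173*, which encodes STING, the adaptor of cytosolic DNA sensing, had 109, 99, and 101 reads against 604, 298, and 268 (log2 fold change 1.89, standard error 0.33). *Ifi204* was at 1.75 and *Zbp1* at 2.46. *Mavs*, the adaptor of the RNA helicases, was at 0.37 and *Eif2ak2*, a kinase that binds double-stranded RNA, at 0.06, and neither passed.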
